A study of Homo sapiens with 24 samples.

Results

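The 10 genes described here, HMGA1, HMGA2, ARID3A, ARID3B, CDC25A, HIC2, LIN28B, IGF2BP1, PLAGL2 and TUSC2, are known targets of the let-7 miRNA family. They were chosen by symbol with earlier results of these data known, and all 10 were present among the 26364 genes of the count tables. The paper names PLAGL2 and TUSC2 as up-regulated by the let-7f inhibitor in these cells. Counts of members raised by the inhibitor include both, so they are not independent of that report. RNA-seq was performed on clones of the ER-positive breast cancer cell line T-47D that expressed WT ER or had the Y537S or D538G mutation on 1 allele of ESR1 at its own locus. The 24 libraries covered 12 conditions, with 2 clones of each ER genotype and 1 library from each clone in every condition. Y537S cells received the let-7f-5p inhibitor, the inhibitor negative control, the mimic negative control, the miR-301b-3p mimic or the miR-331-3p mimic. WT and D538G cells received the mimic negative control or a mimic, which was that of miR-301b-3p or miR-181c-5p in both and also that of miR-331-3p in WT cells. All cells were kept in hormone-deprived media, transfected at 10 nM and collected after 24 h, so every library, controls included, came from transfected cells. Each clone is a single isolate of the line, and 2 clones per genotype limit what a genotype comparison can show. No WT or D538G cells received an inhibitor, so the let-7f response was measured in Y537S cells only.

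A miRNA guides Argonaute proteins to mRNAs that pair with its seed, bases 2 to 8 of the mature strand, and the paired mRNA is degraded or translated less. Let-7 is known for holding down growth and embryonic genes in differentiated cells. LIN28A and LIN28B, RNA-binding proteins that block let-7 maturation, are themselves let-7 targets, which closes a loop between the miRNA and its regulators. An inhibitor is an oligonucleotide that pairs with a miRNA and blocks it. A mimic is a synthetic duplex that acts as extra copies of a miRNA. The negative controls are oligonucleotides of the same kind that are not designed against any transcript or miRNA.

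The mature sequences, from RefSeq, are shown with the seed in capitals because all let-7 family members share it. In all, 11 human mature miRNAs carried the let-7f seed: let-7a, b, c, d, e, f, g and i, miR-98, miR-4458 and miR-4500. The inhibited miRNA and 2 relatives that differ from it outside the seed were:
let-7f-5p: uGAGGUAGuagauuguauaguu
let-7a-5p: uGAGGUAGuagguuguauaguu
miR-98-5p: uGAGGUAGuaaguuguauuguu

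A seed match was a stretch CTACCTC in the sense strand of the 3′UTR, complementary to bases 2 to 8, and a match followed by A (CTACCTCA) is the longer form. Such a match was present in the 3′UTR of all 10 genes, against 9.84% of the 18756 genes with an annotated 3′UTR. The genes were chosen as known let-7 targets, so their matches are not independent of that choice. The longer form was present in 5 of them (HMGA2, ARID3A, HIC2, LIN28B and IGF2BP1), against 3.78% of all 3′UTRs. HMGA2, HIC2, LIN28B and IGF2BP1 had 4 matches each, and 3 or more were found in 0.192% of 3′UTRs. ARID3A and CDC25A had 2 matches, and HMGA1, ARID3B, PLAGL2 and TUSC2 had 1. Of these last genes, ARID3B also had shorter matches: 5 stretches matched bases 2 to 7, and 4 of them were followed by A. HMGA1, PLAGL2 and TUSC2 each had 1 match to bases 2 to 7, not followed by A. Long 3′UTRs hold more matches by length alone: among 3′UTRs of about the length of the IGF2BP1 3′UTR (6701 bases) 32.1% had a match, and among those close in length to the TUSC2 3′UTR (1212 bases) 7.84% did. For each gene the first match of the longer form, or else the first match, is shown in the mRNA sense with the matched bases in capitals. Positions are on GRCh37 (hg19), and each stretch lies within 1 exon of the 3′UTR of the canonical GENCODE transcript.
HMGA1 (chr6:34213599-34213628, plus strand): ccatttttcctctgttcacaaaCTACCTCt
HMGA2 (chr12:66357073-66357100, plus strand): ggggcgccaacgttcgatttCTACCTCA
ARID3A (chr19:974504-974533, plus strand): agcgcctgctgcctatctctgtCTACCTCA
ARID3B (chr15:74890435-74890464, plus strand): atgtttatatttcaataaacctCTACCTCt
CDC25A (chr3:48200292-48200321, minus strand): ctgggacttccatgccttaaacCTACCTCc
HIC2 (chr22:21805164-21805193, plus strand): tttctaccaggaccccctccccCTACCTCA
LIN28B (chr6:105526680-105526709, plus strand): ttcctttacccggttgcaaagtCTACCTCA
IGF2BP1 (chr17:47128416-47128445, plus strand): gcaatgctgtgtgcgaagtaaaCTACCTCA
PLAGL2 (chr20:30782622-30782651, minus strand): actctgattcagaaacacacttCTACCTCt
TUSC2 (chr3:50363059-50363088, minus strand): gtcagagcatttcagccgtttgCTACCTCg

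**Figure D1:**
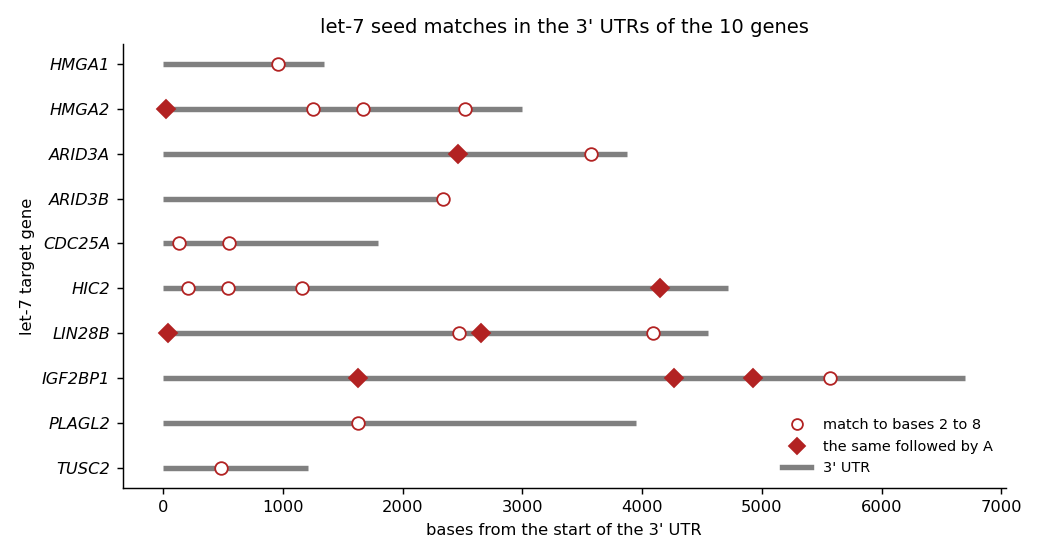
Positions of let-7 seed matches (red) along the 3′UTR (grey bar, in bases from its start) of the 10 genes; filled diamonds mark the longer form followed by A. HMGA2, HIC2, LIN28B and IGF2BP1 hold 4 matches each, and the single match of ARID3B to bases 2 to 8 lies at base 2342 of 2357. Shorter matches are not drawn.

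The 10 genes fell into an expressed set of 7 and a set of 3 at or near 0 in these cells. Libraries held 31379962 to 50526442 counts, and levels are given as normalized CPM, the count scaled to the size of the library. HMGA2, which bends DNA and remodels chromatin in embryonic cells, had 0 to 18 counts per library. LIN28B had 0 to 12 counts and IGF2BP1, an RNA-binding protein that stabilizes growth mRNAs, had 0 to 10, with IGF2BP1 at 0 in 18 of the 24 libraries. A floor of 3 counts in a library corresponds to 0.0594 to 0.0956 CPM, and HMGA2 lay at or under it in 6 libraries, LIN28B in 13 and IGF2BP1 in 21. Of the 4 genes with 4 matches, HIC2 was the exception, with at least 150 counts in every library, and a change in LIN28B or IGF2BP1 was not detectable at this depth. Among the expressed genes the median level per kilobase of exon over all libraries was highest for HMGA1, at 57.8 CPM per kb, followed by PLAGL2 at 19.5, TUSC2 at 16.1, CDC25A at 7.91, ARID3A at 3.53, ARID3B at 1.99 and HIC2 at 0.839. This order held for the medians and not in every condition: TUSC2 was above PLAGL2 in Y537S cells with the inhibitor control or miR-331, and ARID3A above CDC25A in WT cells with miR-331. Of 10 luminal epithelial markers, 9 had a median above 1 CPM over all libraries, the exception being TFF1 at 0.674. Among 13 markers of other cell types, PTPRC and PECAM1 were at a median of 0, and COL1A1 was the highest at 61.7 CPM.

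The first question was whether the 7 expressed targets were higher when let-7f was inhibited in Y537S cells. All 7 were higher in both clones than in the same clone given the inhibitor control, by 0.17 to 1.08 on the log2 CPM scale. ARID3B, a DNA-binding protein of the AT-rich interaction family, had the largest difference, about 2.06-fold. HIC2, PLAGL2, TUSC2, ARID3A, HMGA1 and CDC25A followed. The levels in each library were as follows, the first value being clone 1 and the second clone 2.

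ARID3B stood at 19.8 and 21.1 CPM with the let-7f inhibitor, 10.01 and 9.91 with the inhibitor control, and 12.3 and 12.3 with the mimic control. Both treated libraries lay above all 4 controls, and the clones differed little within any condition. The log2 fold change against the inhibitor control was 1.04 ± 0.12 (SE) and against the mimic control 0.73 ± 0.13.

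HIC2, a zinc-finger transcription factor, stood at 10.4 and 7.85 CPM with the let-7f inhibitor, 5.46 and 4.86 with the inhibitor control, and 6.17 and 5.34 with the mimic control. Here too both treated libraries lay above all 4 controls, with clone 1 the higher. This gave a log2 fold change of 0.83 ± 0.22 against the inhibitor control and 0.67 ± 0.22 against the mimic control, the latter 0.43 without the let-7f library of clone 1.

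TUSC2, a tumor suppressor candidate in the 3p21 region, stood at 50.5 and 48.4 CPM with the let-7f inhibitor, 31.3 and 33.9 with the inhibitor control, and 34.3 and 37.4 with the mimic control. The treated libraries were again above all 4 controls. On the log2 scale the difference was 0.60 ± 0.09 against the inhibitor control and 0.46 ± 0.10 against the mimic control.

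ARID3A, a relative of ARID3B, stood at 29.8 and 39.2 CPM with the let-7f inhibitor, 18.1 and 28.8 with the inhibitor control, and 19.1 and 25.2 with the mimic control. Clone 2 was higher than clone 1 in all 3 conditions, and the lower treated library exceeded the highest control by less than 1 CPM. The log2 fold change was 0.56 ± 0.26 against the inhibitor control and 0.64 ± 0.20 against the mimic control. The first of these was 0.26 without the inhibitor control of clone 1, 0.95 without that of clone 2 and 0.35 without the let-7f library of clone 2, and the second was 0.42 without that let-7f library.

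PLAGL2, a zinc-finger transcription factor, stood at 128.1 and 110.9 CPM with the let-7f inhibitor, 76.1 and 75.6 with the inhibitor control, and 107.1 and 95.9 with the mimic control. The treated libraries were above all 4 controls, but the 2 kinds of control lay well apart. This corresponded to a log2 fold change of 0.66 ± 0.10 against the inhibitor control and 0.24 ± 0.11 against the mimic control, the latter 0.12 without the let-7f library of clone 1.

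HMGA1, an architectural chromatin protein, stood at 136.1 and 173.9 CPM with the let-7f inhibitor, 97.5 and 133.8 with the inhibitor control, and 130.4 and 160.2 with the mimic control. Its treated libraries overlapped the mimic controls. Its log2 fold change was 0.43 ± 0.20 against the inhibitor control and 0.09 ± 0.16 against the mimic control, where its sign turned with a correction for GC content (-0.05). Against the inhibitor control it was 0.21 without the inhibitor control of clone 1, 0.69 without that of clone 2 and 0.24 without the let-7f library of clone 2. HMGA1 has processed pseudogenes, and how reads that map to several genes were counted is not given in the sources used here, so its level is uncertain.

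CDC25A, the phosphatase that activates cyclin-dependent kinases, stood at 42.2 and 41.9 CPM with the let-7f inhibitor, 32.8 and 37.3 with the inhibitor control, and 43.0 and 41.1 with the mimic control. Treated libraries lay above the inhibitor controls and among the mimic controls. The log2 fold change was 0.27 ± 0.10 against the inhibitor control (0.17 without the inhibitor control of clone 1) and -0.0013 ± 0.092 against the mimic control.

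**Figure D2:**
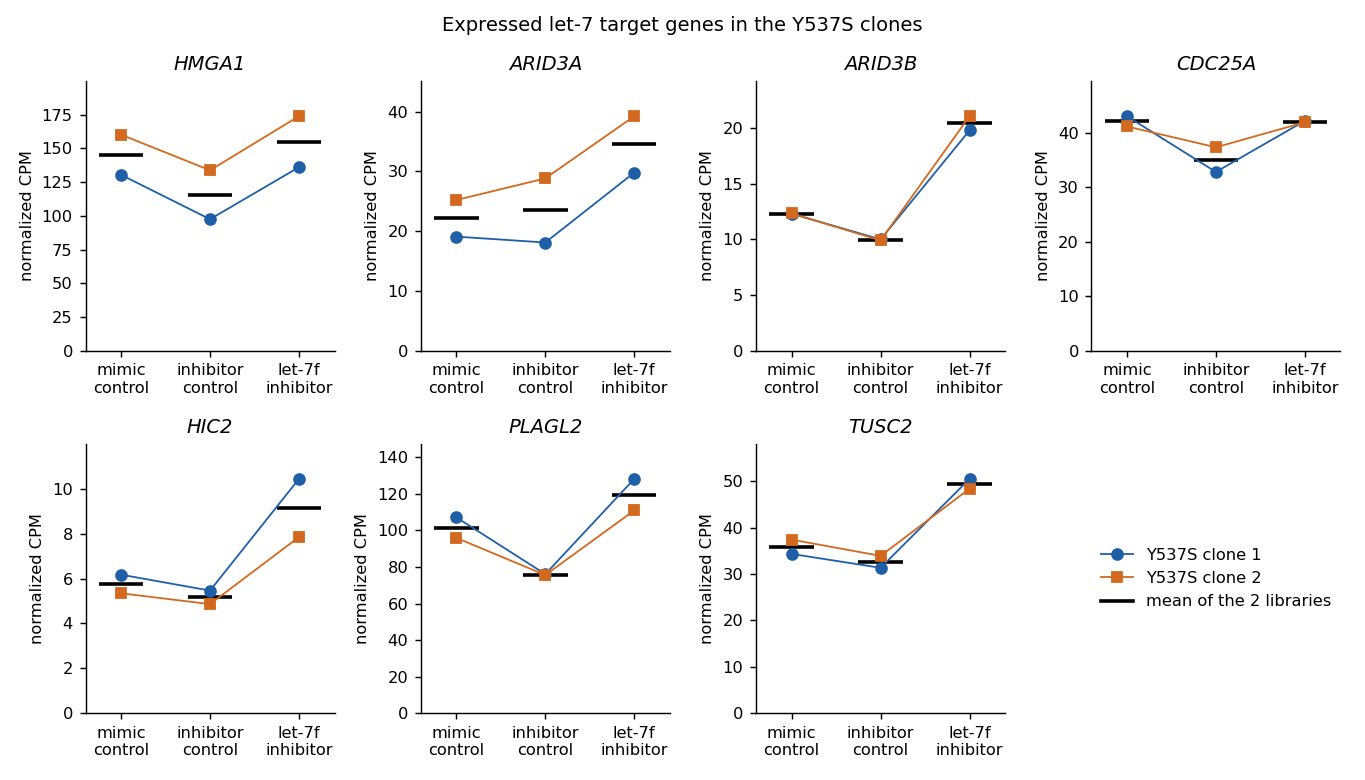
Normalized CPM (y axes from 0) of the 7 expressed let-7 targets in Y537S cells given the mimic control, the inhibitor control or the let-7f inhibitor; lines join libraries of a clone and black bars are means of 2 libraries. ARID3B goes from 9.91 and 10.01 CPM with the inhibitor control to 21.1 and 19.8 CPM with the let-7f inhibitor, while CDC25A returns to its level with the mimic control.

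With the clones as duplicates, the quasi-likelihood test of edgeR (p-values adjusted by Benjamini-Hochberg) called none of the 8 members tested against the inhibitor control, and 0% of 15140 genes overall. At an unadjusted p under 0.05 it counted 5 members and 786 genes. ARID3B, PLAGL2 and TUSC2 each had an adjusted p of 0.751. DESeq2 called 3 members, ARID3B (adjusted p = 1.0e-05), PLAGL2 (0.00014) and TUSC2 (0.0036), all higher, against 0.119% of genes called higher. The rise of PLAGL2 and TUSC2 was already reported in the paper from these libraries. With the clone as a replicate block, the edgeR test called all 7 expressed members higher, against 4.31% of all genes called higher. The adjusted p in that paired fit was 1.8e-07 for PLAGL2, 1.9e-06 for ARID3B, 2.3e-06 for HMGA1, 9.3e-06 for TUSC2, 0.00013 for ARID3A, 0.0011 for HIC2 and 0.019 for CDC25A. Over the 12 alternatives the highest adjusted p was 0.99975 for 6 of these genes and 0.999954 for CDC25A. HMGA2 passed the filter on low counts but had 12 and 13 counts with the let-7f inhibitor, 13 and 2 with the inhibitor control and 2 and 18 with the mimic control, and it was not called (adjusted p = 0.459 in the paired fit). The median log2 fold change of the 8 members tested was 0.63, beside 0.0048 over all genes tested. Because the members were chosen with earlier results of these data known, these counts and this median are not independent of the data.

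Against the mimic control, a second baseline in the same clones, the edgeR test again called none of the members and 0% of 15027 genes, with 4 members and 1400 genes at an unadjusted p under 0.05. DESeq2 called ARID3B (adjusted p = 0.0056) and TUSC2 (0.0485), both higher, against 1.1% of genes called higher. With the clone as a replicate block, 5 members rose, against 8.72% of all genes called higher: ARID3A (adjusted p = 6.3e-10), ARID3B (2.0e-08), TUSC2 (2.2e-06), HIC2 (0.00084) and PLAGL2 (0.0013). Over the 11 alternatives the highest adjusted p of these genes ran from 0.727 for ARID3B to 0.99911 for PLAGL2. HMGA1 (adjusted p = 0.292) and CDC25A (0.995) were not called in the paired fit. The 2 comparisons share the let-7f inhibitor libraries, so they are not independent.

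Counted without a test, both treated libraries were above both inhibitor controls in 15.4% of the 14895 genes tested against both controls, and 7 expressed members and HMGA2 did the same. Both were above all 4 controls in 7.22% of genes and in 5 members, ARID3A, ARID3B, HIC2, PLAGL2 and TUSC2. All 4 within-clone differences were positive in 17% of genes and in 6 members, the 5 just named and HMGA1. With 2 libraries against 2, the smallest p that an exact two-sided permutation test can give for a single gene is 0.333.

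**Figure D3:**
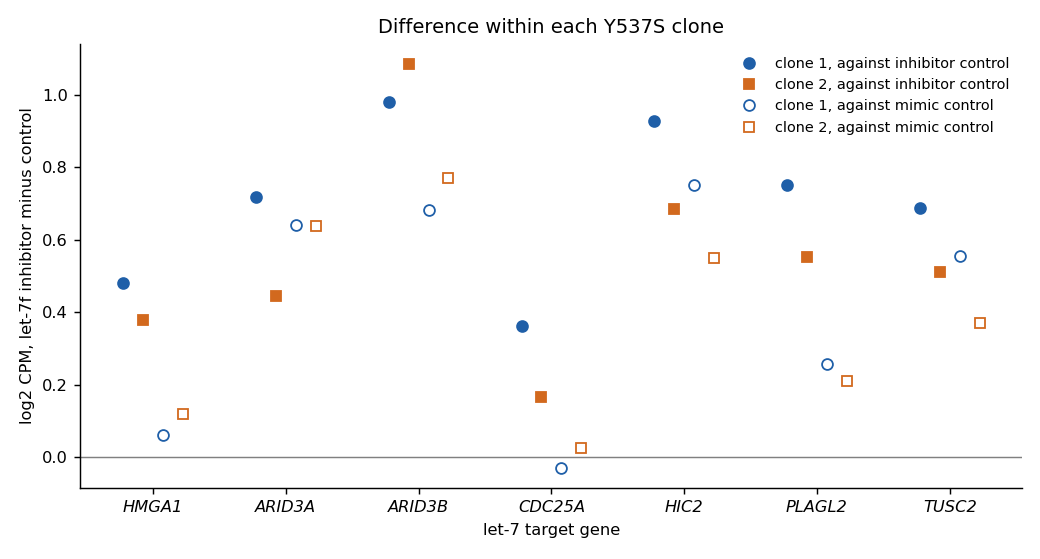
Log2 CPM with the let-7f inhibitor minus that with the inhibitor control (filled) or the mimic control (open) in Y537S clone 1 (circles) and clone 2 (squares), for the 7 expressed targets; 1 point is 1 difference between 2 libraries. ARID3B shows 0.98 and 1.08 against the inhibitor control and 0.68 and 0.77 against the mimic control, and the open points of HMGA1 and CDC25A lie between -0.03 and 0.12.

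The controls themselves were then compared, because the choice of control moved the result for some targets. PLAGL2, HMGA1 and CDC25A were lower with the inhibitor control than with the mimic control, by log2 fold changes of -0.43 ± 0.09, -0.34 ± 0.19 and -0.28 ± 0.11. The edgeR test with the clones as duplicates called no member and 0% of 15063 genes, with 2 members and 1123 genes at an unadjusted p under 0.05, and DESeq2 called PLAGL2 lower (adjusted p = 0.044), against 0.105% of genes called lower. In the paired fit with the replicate block, PLAGL2 (adjusted p = 2.0e-06), HMGA1 (4.2e-06) and CDC25A (0.0086) fell, against 7.84% of genes called lower. Over the 11 alternatives the adjusted p had a highest value of 0.991314 for each of these 3 genes. Without the inhibitor control of clone 1 the difference was -0.12 in HMGA1 and -0.17 in CDC25A, and in HMGA1 it was -0.60 without the inhibitor control of clone 2 and -0.17 without the mimic control of clone 2. ARID3A, HIC2 and TUSC2 differed by 0.07 ± 0.27, -0.17 ± 0.20 and -0.15 ± 0.11 and were not called in that fit, and ARID3B (-0.32 ± 0.14) was not called there either (adjusted p = 0.065) but was with a GC correction added (0.027). The inhibitor control libraries also stood apart in interferon-stimulated genes. Their summed level was 725.2 and 1194.1 CPM with the inhibitor control, 460.9 and 477.5 CPM with the let-7f inhibitor and 479.3 and 509.5 CPM with the mimic control. With the clone block, 19 of 20 interferon-stimulated genes were lower with the let-7f inhibitor than with the inhibitor control (6.88% of all genes were called lower), and 18 of 20 were higher with the inhibitor control than with the mimic control (8.87% called higher). IFIT1 had a mean of 45.6 ± 26.8 CPM (SD, n = 2) with the inhibitor control, 6.83 ± 1.03 with the let-7f inhibitor and 8.58 ± 0.74 with the mimic control. MX1 had 108.9 ± 53.9, 24.5 ± 8.54 and 25.1 ± 6.82 CPM, and IFIT3, IFI6, IRF9 and ISG15 were likewise lower with the let-7f inhibitor, by log2 fold changes of -1.40 to -2.30. The part of this difference in the result for the let-7 targets was not tested. Against the mimic control, none of the 19 interferon-stimulated genes tested was called by edgeR, with or without the block, and none of the 9 with an adjusted p from DESeq2.

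Of 24 other genes listed as let-7 targets, 21 were tested against the inhibitor control, and none was called with the clones as duplicates. In the paired fit, 7 were called higher and 2 lower, beside 4.31% and 6.88% of all genes, and the median log2 fold change of the 21 was 0.016. With a GC correction added to the block, 5 were called higher and none lower, beside 684 and 879 of 15140 genes. Against the mimic control the block called 6 higher and 3 lower, beside 1310 and 1393 of 15027 genes. LIN28A had the largest difference of those named, with 112.3 ± 12.5 CPM (SD, n = 2) with the let-7f inhibitor, 60.0 ± 16.5 with the inhibitor control and 36.9 ± 12.5 with the mimic control. Its log2 fold change was 0.91 ± 0.21 (SE) against the inhibitor control and 1.60 ± 0.24 against the mimic control (adjusted p = 2.9e-08 and 1.4e-110 in the paired fits, 0.762 and 0.263 without the block). Its adjusted p against the inhibitor control ran from 4.6e-64 to 0.99975 over the 12 alternatives. BACH1, a transcription factor of the heme and oxidative stress response, was called higher in both paired edgeR fits (adjusted p = 0.00021 and 0.00013). Without the block its log2 fold change was 0.37 ± 0.13 against the inhibitor control and 0.34 ± 0.12 against the mimic control. Without the let-7f library of clone 1 the first of these was 0.21. IGF1R, NR6A1 and THBS1 were called higher and NRAS lower against the inhibitor control only with the block. The log2 fold changes in that fit were 0.16 ± 0.037, 0.44 ± 0.12, 0.11 ± 0.029 and -0.18 ± 0.045. Without the block they were 0.16 ± 0.37, 0.45 ± 0.17, 0.10 ± 0.13 and -0.18 ± 0.12, and none was called. Without the let-7f library of clone 1 the change in NR6A1 was 0.27, and that in NRAS was -0.05 without the inhibitor control of clone 1 and -0.07 without the let-7f library of clone 2. Without the inhibitor control of clone 2 or the let-7f library of clone 1 the change in IGF1R was -0.19 or -0.32, and without the inhibitor control of clone 1 or the let-7f library of clone 2 that in THBS1 was -0.032 or -0.021. Against the mimic control NRAS was higher, by 0.44 ± 0.11.

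The miRNA machinery list held 12 genes, all tested. With the clone block 5 were called higher than with the inhibitor control and none lower, beside 4.31% and 6.88% of all genes. With a GC correction added it was 4 and none, beside 684 and 879 of 15140 genes. Against the mimic control the block called 3 higher and 3 lower, beside 1310 and 1393 of 15027 genes. Between the controls the block called 7 lower with the inhibitor control, beside 7.84% of genes called lower. DICER1 is the enzyme that cuts miRNA precursors. Its mRNA is reported as a let-7 target, but the annotated 3′UTR used here held no let-7f match to bases 2 to 8. DICER1 stood at 345.3 ± 53.1 CPM with the let-7f inhibitor, 207.2 ± 18.8 with the inhibitor control and 303.5 ± 5.40 with the mimic control (SD, n = 2). The lower value was again the inhibitor control. Against the inhibitor control without the block, AGO2, the Argonaute that cleaves targets, differed by 0.37 ± 0.14 on the log2 scale. In the same fit DROSHA differed by 0.20 ± 0.07, XPO5 by 0.16 ± 0.09 and TNRC6B by 0.17 ± 0.11. Without 1 library these ran down to 0.22 for AGO2 (without the let-7f library of clone 1), 0.07 for XPO5 (without the inhibitor control of clone 2) and 0.05 for TNRC6B (without the inhibitor control of clone 1). Against the mimic control DROSHA differed by -0.02 ± 0.08, XPO5 by 0.10 ± 0.08, AGO2 by 0.17 ± 0.13 and DICER1 by 0.19 ± 0.11. TNRC6B was lower than with the mimic control, by -0.37 ± 0.09. Of 5 genes of the LIN28 axis 4 were tested and only LIN28A was called with the block, and 2 with a GC correction added. Among 10 luminal markers 3 were called higher and 3 lower with the block, with log2 fold changes from -0.15 to 0.14. PGR, EPCAM and FOXA1 were lower and KRT18, KRT8 and CDH1 higher. With a GC correction added 1 was called higher and 5 lower. For the LIN28 axis and the luminal markers the values over all genes are those given above for the same fits. None of 7 tested markers of other cell types was called by edgeR. The 10 members and these lists were not independent of what had been seen in the data.

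The other 3 mimics have different seeds, shown in capitals in the mature sequences (RefSeq):
miR-301b-3p: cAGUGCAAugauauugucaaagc
miR-331-3p: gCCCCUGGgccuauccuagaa
miR-181c-5p: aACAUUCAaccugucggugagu
Among the 7 expressed members, a 7-base match to miR-331 (CCAGGGG) was present in the 3′UTRs of ARID3A and HIC2, a match to miR-181c (TGAATGT) in those of ARID3A and HIC2, and no match to miR-301b (TTGCACT). These 3 matches were present in 14.1%, 19.4% and 14.2% of all 3′UTRs.

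After the miR-301b mimic the clearest change was in ARID3A. With the mimic control its levels were 19.1 and 25.2 CPM in the Y537S clones, 18.5 and 19.01 in the D538G clones A5 and C2, and 15.99 and 14.9 in the WT clones D1 and D4. With miR-301b they were 32.5 and 45.03 in Y537S, 31.5 and 33.03 in D538G and 25.7 and 26.98 in WT, so the mimic libraries lay above the controls in each genotype. ARID3A was called higher in D538G (0.78 ± 0.11, adjusted p = 0.0052, 11.8% of genes called) and WT cells (0.77 ± 0.11, adjusted p = 0.0073, 8.5% called). In Y537S cells no member was called (3.57% of genes called). With the clone as a replicate block, the paired fit in Y537S cells called ARID3A (0.78 ± 0.10, adjusted p = 1.8e-12), HIC2 (0.70 ± 0.16, 0.00013) and HMGA1 (0.25 ± 0.06, 0.00020) higher and TUSC2 lower (-0.24 ± 0.09, 0.027), against 38.4% of genes, and HMGA1 had a GC-corrected change of -0.02. In D538G cells the block added ARID3B (0.37 ± 0.13, 0.018) and HIC2 (0.64 ± 0.19, 0.0031) against 33.3% of genes, and in WT cells ARID3B (0.51 ± 0.12, 0.0062) against 28.2%. These added calls were lost with a GC correction on top of the block, where ARID3B was 0.21 (adjusted p = 0.273) and HIC2 0.41 (0.110) in D538G cells and ARID3B was 0.36 (0.0512) in WT cells, while TUSC2 was then called lower in WT cells (-0.30, 0.017). HMGA1 was called in WT cells without the block, at 0.34 ± 0.07 (adjusted p = 0.030), but with a GC correction it was 0.08 and not called. The ARID3A calls held without any 1 library (highest adjusted p over the alternatives 0.0378 in D538G and 0.0166 in WT cells). The HMGA1 call in WT cells was lost without the mimic control library of D1 (adjusted p = 0.158) or D4 (0.201).

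After the miR-331 mimic, CDC25A fell and TUSC2 rose in both genotypes given it. CDC25A fell from 43.0 and 41.1 CPM to 27.4 and 30.1 CPM in Y537S cells (-0.53 ± 0.11, adjusted p = 0.018) and from 15.2 and 16.6 CPM to 8.36 and 8.81 CPM in WT cells (-0.87 ± 0.13, adjusted p = 0.0011). TUSC2 rose from 34.3 and 37.4 to 54.8 and 51.1 CPM in Y537S cells (0.58 ± 0.11, adjusted p = 0.014) and from 39.03 and 41.2 to 48.6 and 48.4 CPM in WT cells (0.30 ± 0.07, adjusted p = 0.015). ARID3B fell in Y537S cells, from 12.3 and 12.3 CPM to 6.81 and 8.68 CPM (-0.65 ± 0.19, adjusted p = 0.049). The background was 33% of genes in Y537S and 24.8% in WT cells. CDC25A and ARID3B, the genes that fell, had no miR-331 match of 7 bases to the seed in the annotated 3′UTR, although ARID3B had 2 matches of 6 bases (bases 2 to 7), 1 of them followed by A. In the paired fit with the replicate block, HMGA1 was called higher in Y537S cells (0.35 ± 0.06, adjusted p = 1.6e-05, 60.7% of genes), although its GC-corrected change was -0.004, and ARID3B was called lower in WT cells (-0.42 ± 0.14, adjusted p = 0.013, 37% of genes). CDC25A kept its call in WT cells in every alternative (highest adjusted p 0.0174), whereas in Y537S cells all 3 calls were lost without the mimic control of clone 1 (adjusted p = 0.0875 for CDC25A, 0.0737 for TUSC2 and 0.147 for ARID3B), and those of CDC25A and ARID3B without the mimic control of clone 2 (0.0607 and 0.160) or the miR-331 library of clone 1 (0.0703 and 0.192). The TUSC2 call in WT cells was lost without the mimic control of D1 (0.0696), either miR-331 library (0.102 for D1 and 0.0738 for D4) or with a GC correction (0.124), as was that in Y537S cells with the GC correction (0.0625).

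After the miR-181c mimic, ARID3A, PLAGL2 and TUSC2 rose in both genotypes given it. PLAGL2 went from 99.03 and 106.0 to 130.5 and 143.9 CPM in D538G cells (0.42 ± 0.08, adjusted p = 0.014) and from 121.9 and 119.1 to 193.7 and 172.7 CPM in WT cells (0.59 ± 0.08, adjusted p = 0.0012), the WT levels being the highest of PLAGL2 in any condition. ARID3A rose by 0.50 ± 0.11 in D538G (adjusted p = 0.023) and 0.49 ± 0.11 in WT cells (0.017), and TUSC2 by 0.36 ± 0.09 (0.036) and 0.37 ± 0.08 (0.016). CDC25A rose in WT cells, from 15.2 and 16.6 to 25.2 and 21.5 CPM (0.54 ± 0.12, adjusted p = 0.016). HMGA1 was called in WT cells at 0.30 ± 0.08 (0.029), but its GC-corrected value was 0.04. The background was 9.52% of genes in D538G and 16.4% in WT cells. With the replicate block the same 5 members were called in WT cells (27.9% of genes), and HMGA1 was added in D538G cells at 0.19 ± 0.06 (adjusted p = 0.0076, 29.3% of genes), where its GC-corrected value was -0.07. PLAGL2 kept its call in WT cells in every alternative (highest adjusted p 0.0120) and lost it in D538G cells without the miR-181c library of C2 (0.1004). The other calls in D538G cells were lost without 1 of several libraries: ARID3A without the control of C2 (0.0569) or the miR-181c library of A5 (0.0601) or C2 (0.118), and TUSC2 without any 1 of the 4 (0.0542 to 0.208). In WT cells ARID3A lost its call without the control of D1 (0.0633) or D4 (0.111) or the miR-181c library of D4 (0.0671), CDC25A without the control of D1 (0.116) or the miR-181c library of D1 (0.0750), TUSC2 without the control of D1 (0.148) or D4 (0.0744) or the miR-181c library of D4 (0.0588), and HMGA1 without the control of D1 (0.133) or D4 (0.172) or the miR-181c library of D1 (0.119). With the GC correction ARID3A (0.197 in D538G and 0.155 in WT cells) and TUSC2 (0.197 and 0.0902) were not called. Each mimic comparison within a genotype uses the same mimic control libraries.

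**Figure D4:**
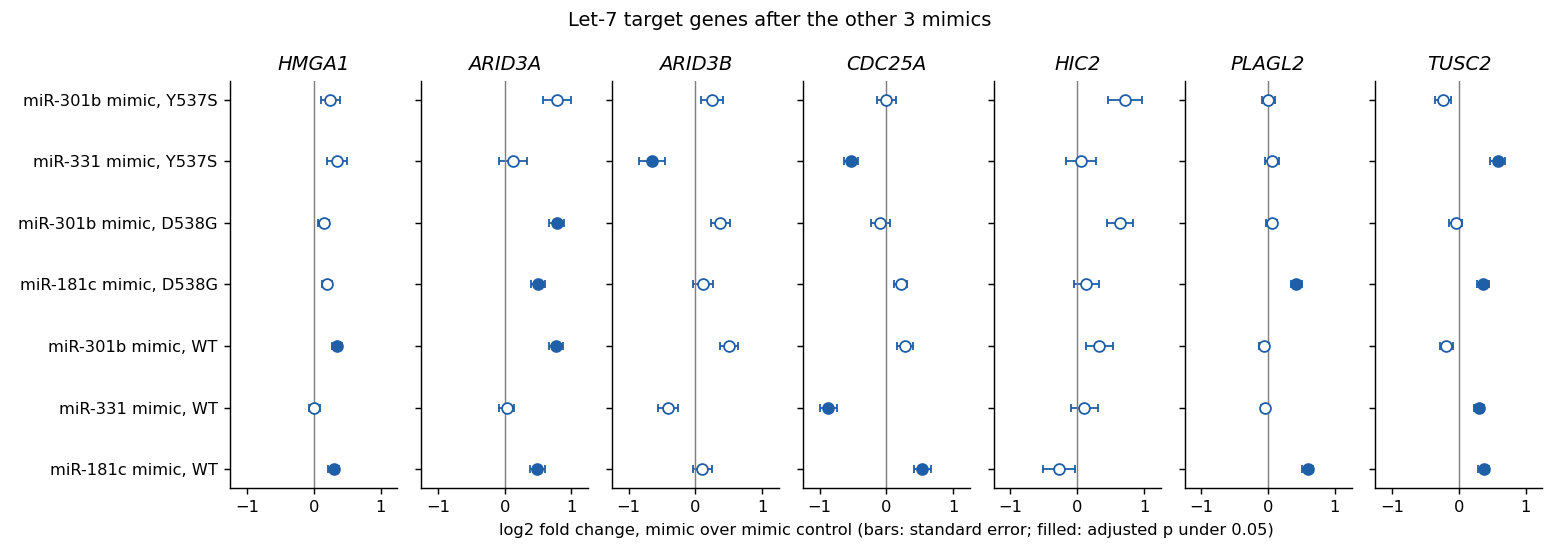
Log2 fold change (x axes, bars are standard errors) of the 7 expressed let-7 targets after each mimic against the mimic control of the same genotype, filled where the adjusted p was under 0.05 in edgeR with the clones as duplicates. ARID3A stands at 0.77 to 0.78 after miR-301b in all 3 genotypes, and CDC25A at -0.53 and -0.87 after miR-331.

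Whether the response to a mimic differed between a mutant and WT cells was tested with an interaction term. No member was called in any of the 4 such tests with the clones as duplicates, and none had an unadjusted p under 0.05. With the clone as a replicate block, HMGA1 was called for miR-331, 0.33 ± 0.09 higher in Y537S than in WT cells (adjusted p = 0.0035), against 34.1% of genes called.

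Levels under the mimic control were compared between ER genotypes. CDC25A was higher in both mutants: its mean was 42.1 ± 1.33 CPM in Y537S, 33.5 ± 0.997 in D538G and 15.9 ± 1.002 in WT cells (SD, n = 2), with log2 fold changes over WT of 1.42 ± 0.11 (SE, adjusted p = 0.00025) and 1.06 ± 0.11 (0.00011). HMGA1 was also higher in both, at 145.3 ± 21.1, 134.6 ± 0.275 and 99.5 ± 1.91 CPM, with log2 fold changes of 0.56 ± 0.11 (0.0093) and 0.42 ± 0.07 (0.0015). ARID3A was higher in Y537S (0.54 ± 0.17, adjusted p = 0.049), and PLAGL2 was lower in D538G (-0.25 ± 0.07, 0.028), with a mean of 102.5 ± 4.90 CPM against 120.5 ± 2.03 in WT. Of all genes, 29% were called between Y537S and WT and 38.9% between D538G and WT. Between Y537S and D538G cells no member was called by edgeR or DESeq2, 1 had an unadjusted p under 0.05, and 6.19% of genes were called. Over the alternatives the CDC25A calls held (highest adjusted p 0.0019 in Y537S and 0.00047 in D538G), as did that of HMGA1 in D538G (0.0132). Without the WT control library of D1 or D4, HMGA1 was not called in Y537S (0.0506 and 0.0637), nor ARID3A (0.146 and 0.219), nor PLAGL2 in D538G (0.117 and 0.0739). The ARID3A call was also lost without the Y537S control of clone 2 (0.131, with a log2 fold change of 0.32), with the size factors of DESeq2 (0.0501) and with all conditions in 1 fit (0.0770), and PLAGL2 without the D538G control of A5 (0.113). ARID3B, HIC2 and TUSC2 were not called in any genotype comparison, and their means under the mimic control were 12.3, 11.9 and 10.9 CPM, 5.76, 5.47 and 6.01 CPM, and 35.9, 38.3 and 40.1 CPM in Y537S, D538G and WT cells. The paper counts PLAGL2 and TUSC2 among the genes down-regulated in mutant cells, a set defined in an earlier study and not from these transfected control libraries. Here neither was called lower in Y537S than in WT cells, although both means were lower (101.5 against 120.5 CPM for PLAGL2). Genotype cannot be told apart from clone-to-clone differences beyond the spread of the 2 clones.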

How the data were processed

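Gene expression was measured by poly-A RNA-seq (KAPA stranded kit, Illumina NovaSeq) in 24 libraries. According to the methods and the submitters' processing notes, the authors used HISAT2 for alignment to hg19 and featureCounts (Subread) with UCSC Known Genes for counting. They deposited raw counts per gene without normalization. Tool versions, strand setting and handling of multimapped reads are not given in the sources used here. Some labels give the Y537S genotype with transposed digits, and titles were followed. In the D538G and WT tables the columns carry clone names that the labels replace by numbers, so they were assigned to conditions.

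Counts were tested in edgeR 4.0.16 (R 4.3.3) with TMM normalization, filterByExpr and the two-sided quasi-likelihood test. Benjamini-Hochberg adjustment was over all genes tested, at a threshold of 0.05. The clones were duplicates as in the study's methods, but the tool was not the same. The authors tested with DESeq2, which is an alternative here. A pairwise fit had only the libraries compared and 2 residual degrees of freedom, or 1 with the clone block, and an interaction fit 4, or 2 with it. The standard error is the log2 fold change over the square root of F. CPM used TMM factors over all 24 libraries, and within-clone differences used log2 CPM with a prior count of 2. Labels do not say that clones were cultured separately for each treatment, so p-values reflect no spread beyond that between these libraries. The edgeR test also moderates the spread of each gene with that of all genes. With 1 residual degree of freedom, the p-values of the block rest largely on this shared estimate and not on replicates of the gene itself. Libraries of a clone come from the same isolate of the line, which pairs them. The correlation of same-clone deviations was 0.714 to 0.770 in Y537S, 0.450 to 0.458 in D538G and 0.332 to 0.468 in WT cells, over 12127 genes. No pair of libraries agreed within counting noise, the lowest chi-square per degree of freedom being 11.24.

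Alternatives were DESeq2 1.42.0, its size factors, no filter on low counts, all conditions in 1 fit, the clone block, a GC correction (lowess, span 0.3, over the 90.5% of genes with a GC value), both together and each library left out. The test procedures were run on simulated counts with the same dispersion for every gene and a set clone effect. The spread between the real clones was not simulated, so this run does not check the p-values of the block. Annotation was GENCODE v44 lifted to GRCh37: 22494 genes matched by symbol, 1363 by an older symbol and 2507 did not. The 3′UTR was that of the canonical transcript. All 10 members were named for the let-7f and control comparisons, elsewhere those called, with those called in the paired fit where it changed the call. From other lists up to 6 genes called in the paired fit against the inhibitor control were named, in order of p. Members and lists were chosen with earlier results of these data known.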

Additional observations from a re-analysis of the deposited data

Results flagged for a closer look

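The response of HMGA1 to the miR-331 mimic differed between Y537S and WT cells by 0.33 on the log2 scale when the clone was a block (edgeR, adjusted p = 0.0035), and by 0.33 without it (adjusted p = 0.303). With the block 34.1% of genes were called. HMGA1 was at 166.0 and 200.9 CPM after miR-331 against 130.4 and 160.2 CPM with the mimic control in Y537S cells, and at 106.8 and 90.2 CPM against 100.9 and 98.2 CPM in WT cells. It was higher in 2 of 2 Y537S clones and 1 of 2 WT clones. With the block and a GC correction the difference was 0.31 (adjusted p = 0.0035), and 4816 of 15666 genes were called. As given above for the miR-331 mimic, the GC-corrected change within Y537S cells was not a rise. The rise in the Y537S clones is thus in levels without that correction. Groups of 2 libraries are too small to look for single outlying samples.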

How the results depend on the processing

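Precision was limited by 2 clones per condition and, for HMGA2, LIN28B and IGF2BP1, by counts near 0. Where 1 library was left out, the lone library of its condition was assumed to vary like the others. The alternative values counted were those for single genes and for the number of members with a seed match. Of these, 615 stayed the same, which for a gene means the same direction and side of the threshold. Another 52 lost the call, 91 gained it, 20 turned in direction and 1, a seed-match number, moved. The cause was not tested in any case.

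The number of members called with the clones as duplicates was 0 in the 3 comparisons of the let-7f inhibitor and the controls. With the replicate block it was 7 against the inhibitor control, 5 against the mimic control and 3 between the controls. With the block and a GC correction it was 7, 5 and 4 (of all genes, 1563 of 15140, 1813 of 15027 and 2352 of 15063), and with DESeq2 3, 2 and 1. A fit with both controls as 1 group and the replicate block was chosen after seeing the data. In that fit the number was 4 (ARID3A, ARID3B, HIC2 and TUSC2), beside 150 of 15338 genes. It stayed at 0 without any 1 library. For the miR-301b mimic it was 0 in Y537S cells and 4 in the paired fit. It was 3 with the GC correction added, beside 4278 of 15145 genes, and 1 with DESeq2, beside 1738 of 11453. In D538G cells it was 1, and 3 in the paired fit. It was 1 with the GC correction added to the block (2537 of 14845 genes). Without the filter on low counts it was 2 (2871 of 19697 genes), and with all conditions in 1 fit 2 (2114 of 15126). In WT cells it was 2, and 1 with the GC correction (706 of 15113 genes). That correction together with the block gave 2 (1 higher, 1 lower), beside 2235 of 15113 genes. For miR-331 in WT cells it was 2, and 4 with the block and GC correction (1 higher, 3 lower), beside 3436 of 15140 genes. For miR-181c it was 3 in D538G cells and 1 with the GC correction (206 of 14826 genes). In WT cells it was 5, and 2 with the GC correction (1108 of 14968 genes). With the block added to that correction it was 3 (2485 of 14968). For the difference in miR-331 response it was 0 (1557 of 15666 genes). It was 1 with the block (5345 of 15666) and 1 with the block and GC correction (4816 of 15666). The block changed no other count by more than 1.5 times. Leaving out 1 library gave 0 to 1 members for miR-301b in Y537S (1 without the miR-301b library of clone 1), 0 to 3 for miR-331 in Y537S, 0 to 2 for miR-181c in D538G, 1 to 3 for miR-301b in WT, 1 to 2 for miR-331 in WT, 1 to 3 for miR-181c in WT and 1 to 4 for Y537S against WT cells.

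Directions turned for small differences. Against the mimic control, HMGA1 was -0.053 with the GC correction, -0.052 with the block added, and -0.10 to 0.26 with 1 library left out, HMGA2 -0.49 to 2.50 and CDC25A -0.020 to 0.019. Between the controls, ARID3A was -0.016 with the block and GC correction, and with 1 library left out -0.31 to 0.38, and HMGA2 -2.25 to 1.55. Against the inhibitor control with 1 library left out, IGF1R ran from -0.32 to 0.64, THBS1 from -0.032 to 0.26, CDH1 from -0.19 to 0.49 and FOXA1 from -0.20 to 0.011, and with both controls as 1 group NRAS was 0.091 and TNRC6B -0.13. Of the 10 members, 10 had a match of 6 bases, 5 one of 8 bases, 9 a match in the longest annotated 3′UTR (HMGA2 had none there), and 7 a match to bases 2 to 7 followed by A, a form added after seeing the data.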
